A study of Mus musculus with 12 samples.

Results

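The genes described here encode the proteasome, its regulatory particles and the factors that assemble it. They were chosen by symbol, as every entry of the count table that starts with Psm, a letter from a to g and a number, which gave 51 of 26214 gene symbols. By symbol, 19 belong to the core (Psma and Psmb), 21 to the cap (Psmc and Psmd) and 11 to the activators or assembly factors (Psme, Psmf and Psmg). Psmc3ip and Psme3ip1 match the pattern but are named as interacting proteins, which leaves 49 genes of the particle, its regulators and its assembly factors. Every one of the 51 had at least 1 count. In RNA from a whole culture, fewer cells that express a gene and less of its RNA per cell cannot be told apart.

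The series measured polyA RNA in a single immortalized line of mouse Leydig cells, mLTC-1. Leydig cells make the androgens of the testis. By the labels, 6 control libraries came from cells given the vehicle DMSO and 6 from cells given 100 µM MSNBA, a compound known to block fructose uptake through Glut5, in both cases for 24 h. No label tells whether the replicates of a group were grown apart, so the p-values reflect the spread among these libraries, part of which may be technical.

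The proteasome degrades proteins that carry chains of ubiquitin. Its core is a barrel of stacked rings, with the Psma subunits forming the outer rings that gate the entrance and the Psmb subunits forming the inner rings that cut peptides. The cap recognizes ubiquitin, unfolds the substrate with the Psmc ATPases and threads it into the barrel. Psme proteins are alternative activators that open the gate without ubiquitin, and Psmg proteins are chaperones that assemble the core. In cells exposed to interferon, Psmb8, Psmb9 and Psmb10 take the places of the catalytic subunits Psmb5, Psmb6 and Psmb7 and form the immunoproteasome.

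Library totals ran from 59113 to 234225 counts in controls and from 94179 to 657251 counts in MSNBA. Depth and treatment were thus partly confounded. The 7 Leydig markers examined were all abundant enough to test and summed to 7490 to 10905 CPM (counts of a gene scaled to a common library size) in controls and 7569 to 9388 CPM in MSNBA. Markers of macrophages and leukocytes, which are rich in immunoproteasome, summed to 12 counts over all controls and 18 over all MSNBA libraries. Treatment was a compound and not a deletion, so no transcript in the table checks the labels.

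No proteasome gene passed the test for a difference between MSNBA and control. Of the 31 members with enough counts to test, 13 were core, 15 cap and 3 activators, and 0 were called at an adjusted p of 0.05 by edgeR, where 0.0765% of the 2614 tested genes were called. DESeq2, which took in all 51, and limma-voom also called 0 members. They called 0 of all 19572 and 0 of all 2614 genes, so these zeros say nothing particular to the members. At an unadjusted p under 0.05, edgeR had 1 of 31 members, Psme1, where 8.95% of all tested genes passed. By direction, 0 members were higher and 1 lower, beside 4.17% and 4.78% of all tested genes. DESeq2 had 2 of 51 at that level, Psme1 and Psmc3ip, beside 394 of all 19572 genes. Limma-voom had 1 of 31, Psme1, beside 259 of all 2614 genes. For no member did the MSNBA and control libraries lie apart without overlap, which 0.23% of all tested genes did upward and 0.421% downward. The filter for testing asks for a minimum CPM in at least 6 of 12 libraries, so a member could pass through one group alone, and the tested members are not all members.

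The intervals set limits on what these libraries could hide. For all 31 tested members the 95% interval of the fold change lay within 2-fold either way, as it did for 94.5% of all tested genes. For 21 of the 31 it lay within 1.5-fold. The widest reaches were those of Psmd14, up to 1.89-fold, and Psmd6, down to 0.585-fold. The biological coefficient of variation of the tested members, the spread between replicates beyond counting noise, had a median of 0.13 and ran from 0.0900 to 0.187, beside a median of 0.13 over all tested genes.

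**Figure D1:**
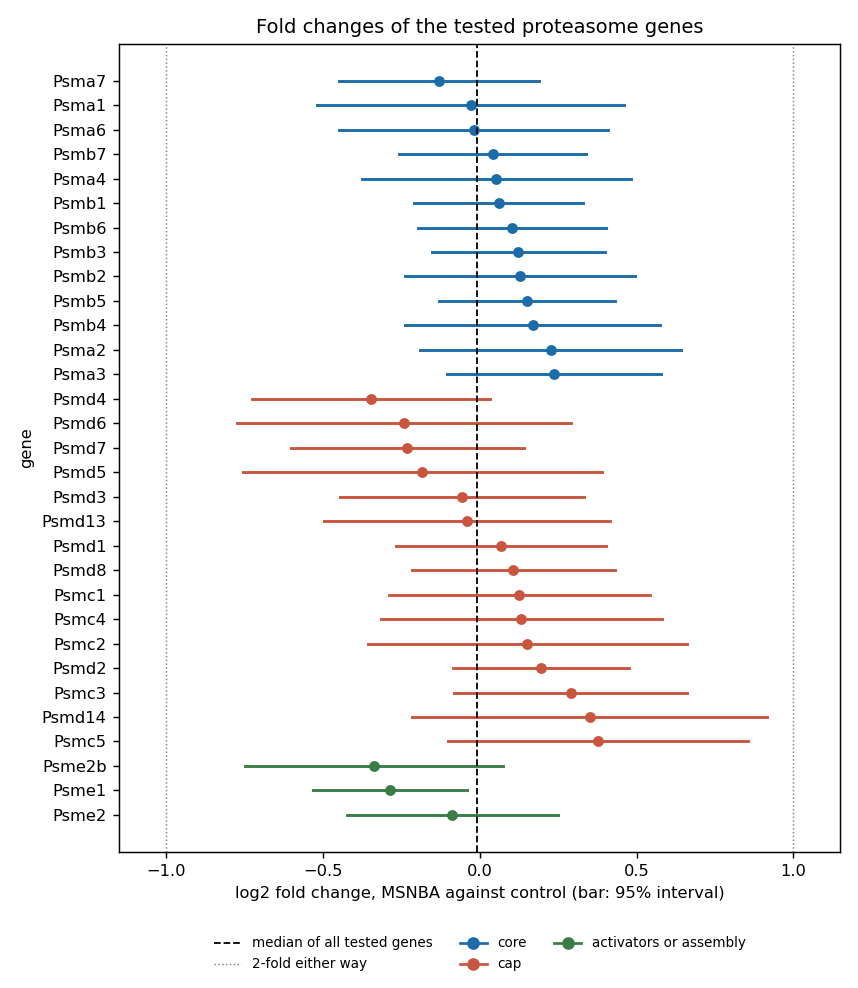
Log2 fold change of MSNBA against control (horizontal axis) for each of the 31 tested proteasome genes, with bars for the 95% interval and colours for the class. All bars stay inside the dotted 2-fold lines, and only the bar of Psme1 lies wholly on one side of 0.

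Promoter sequence was examined for motifs of factors known for proteasome and immunoproteasome genes, since the members could be compared there on a feature that counts do not use. RefSeq windows of mm10 (GRCm38.p6), from 250 bases before to 50 after the start, were matched for 43 of the 51 genes, in 47 windows of 300 bases, and motifs were searched on both strands with N for any base. The core of the antioxidant response element, TGACNNNGC, which Nfe2l1 and Nfe2l2 bind, was in 6 of 47 windows (12.8%) and in 12.4% of all 32851 windows. The NF-Y box CCAAT was in 34.0% and 37.4%, and the Sp1 box GGGCGG in 53.2% and 35.7%. The interferon response core, a pair of GAAA blocks spaced by 2 bases, was in 5 windows (10.6%), those of Psmb3, Psmd4, Psmd9, Psme1 and Psmg4, and in 3.44% of all windows. Matches are descriptions of letters and not binding sites.

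Stretches of 100 bases upstream of the start are shown because they carry these letters in genes whose values follow, with the match in capitals. They are Psmd4 at chr3:95042640-95042739 (minus strand), Psmb3 at chr11:97703226-97703325 (plus strand) and Psmb5 at chr14:54617996-54618095 (minus strand), each written from 5′ to 3′ along the gene. Psmd4 and Psmb3 carry the reverse complement of the interferon core, and Psmb5 carries the antioxidant core.
Psmd4: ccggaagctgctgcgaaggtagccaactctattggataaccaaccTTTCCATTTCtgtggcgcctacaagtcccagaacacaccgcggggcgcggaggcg
Psmb3: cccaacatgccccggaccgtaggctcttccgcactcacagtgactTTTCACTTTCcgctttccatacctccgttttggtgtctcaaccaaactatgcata
Psmb5: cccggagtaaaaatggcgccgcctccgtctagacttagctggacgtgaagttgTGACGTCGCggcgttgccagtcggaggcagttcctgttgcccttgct

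Core genes make the barrel itself. Of the 13 tested, 10 had a log2 fold change above 0 and 3 below, with a median of 0.10 and a range from -0.13 (Psma7) to 0.24 (Psma3), while over all tested genes the median was -0.0082 and 48.5% were above 0. Adjusted p-values of the core genes ran from 0.682 to 0.993. Summed per library, the 19 core genes gave 3310 to 4329 CPM of the full library total in controls (mean 3854 ± 359, SD, n = 6) and 3625 to 4738 CPM in MSNBA (mean 4114 ± 413, SD, n = 6). The groups overlapped over most of their range.

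The 3 catalytic subunits of the constitutive core overlapped between the groups. Psmb5, which holds the chymotrypsin-like site and lies at chr14:54614120-54617995 of mm10, measured 381, 603 and 650 normalized CPM (lowest, median and highest of 6) in controls and 477, 649 and 726 CPM in MSNBA. Here and below, normalized CPM of a single gene have as their base the summed tested genes of that library, scaled by TMM. In 3 of 6 MSNBA libraries Psmb5 exceeded every control, but its lowest MSNBA value lay below 5 of the 6 controls. The fitted log2 difference was 0.15 (SE 0.14, edgeR adjusted p = 0.784), and the 95% interval of the fold ran from 0.913-fold to 1.35-fold. The difference was 0.071 without control 2, 0.063 with library depth in the model and -0.010 after thinning the libraries to equal depth. Thinning, here and below, was a single random draw of each library down to 59113 counts, and other draws were not made.

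Psmb6, the caspase-like subunit at chr11:70525324-70527858, measured 303, 398 and 529 CPM in controls and 379, 444 and 529 CPM in MSNBA. Psmb7, the trypsin-like subunit at chr2:38588046-38643952, measured 343, 530 and 657 CPM in controls and 439, 523 and 654 CPM in MSNBA. For both genes the MSNBA values lay inside the control range. The log2 fold changes were 0.10 (SE 0.15) for Psmb6 and 0.04 (SE 0.15) for Psmb7. With 1 library left out Psmb6 ran from 0.049 (without control 5) to 0.16 (without control 2) and Psmb7 from -0.045 (without control 3) to 0.11 (without control 4). Part of the Psmb7 exons, 11.8% of their bases, is shared with Nek6 on the opposite strand, and strand use in counting is not given in the sources used here.

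At the ends of the core range, Psma3, an outer-ring subunit, measured 176, 274 and 331 CPM in controls and 262, 335 and 345 CPM in MSNBA. In 4 of 6 MSNBA libraries it lay above all controls, and its fitted log2 difference was 0.24 (SE 0.17, edgeR adjusted p = 0.682). Psma7, also of the outer ring, measured 238, 421 and 593 CPM in controls and 329, 387 and 440 CPM in MSNBA. All MSNBA values of Psma7 lay inside the wider control range, and the fitted log2 difference was -0.13 (SE 0.16, edgeR adjusted p = 0.852). It was -0.038 without control 4 and -0.22 without control 5.

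**Figure D2:**
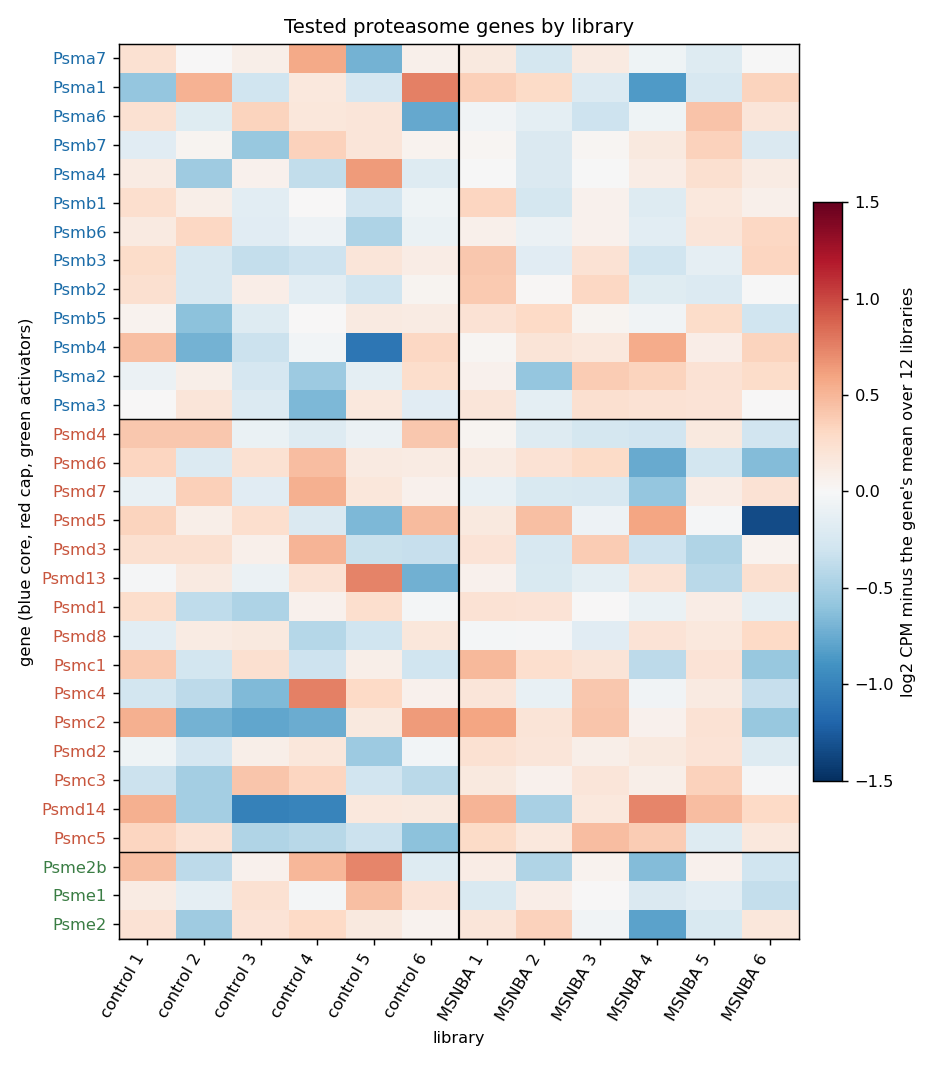
Each row is a tested proteasome gene and each column a library, and the colour gives log2 CPM (prior count 2) minus the gene's own mean over the 12 libraries. No block of genes separates the 6 control columns from the 6 MSNBA columns; the lowest single value is that of Psmd5 in MSNBA 6.

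The cap was measured through 5 ATPase genes (Psmc) and 10 non-ATPase genes (Psmd). Of these 15, 9 had a log2 fold change above 0 and 6 below, with a median of 0.11 and a range from -0.35 (Psmd4) to 0.38 (Psmc5). Their adjusted p-values ran from 0.586 to 0.976. The 5 ATPase genes had values from 0.13 (Psmc1) to 0.38 (Psmc5). The cap median was -0.064 with library depth in the model and -0.0082 without MSNBA 1, the deepest library. Summed over 21 genes, the cap gave 2429 to 2835 CPM of the full total in controls (mean 2593 ± 167, SD, n = 6) and 2399 to 3084 CPM in MSNBA (mean 2734 ± 225, SD, n = 6).

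Psmc5, an ATPase subunit at chr11:106256185-106263112, measured 68.6, 83.4 and 143 CPM in controls and 96.4, 133 and 160 CPM in MSNBA. All 6 MSNBA values lay above the control median and 2 above every control. The fitted log2 difference was 0.38 (SE 0.24, edgeR adjusted p = 0.631), and it was 0.64 without control 1 and 0.25 without control 6. With library depth in the model it was 0.22. For Psmc3, another ATPase, all 6 MSNBA libraries were likewise above the control median, with 239 to 310 CPM against 165 to 328 CPM in controls. Psmc3 shares 8.25% of its exon bases with Slc39a13 on the opposite strand.

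Psmd14, the deubiquitinase that cuts ubiquitin from substrates as they enter, measured 31.2, 67.7 and 116 CPM in controls and 50.6, 104 and 136 CPM in MSNBA. The 2 lowest libraries were controls 3 and 4, and 5 of 6 MSNBA libraries lay above the control median. The fitted log2 difference was 0.35 (SE 0.28, edgeR adjusted p = 0.734). It was 0.73 without control 1, 0.23 without control 3 and 0.087 with library depth in the model.

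Psmd4, a ubiquitin receptor at chr3:95032688-95042614, had the lowest value of the cap. It measured 160, 211 and 249 CPM in controls and 149, 156 and 207 CPM in MSNBA. All 6 MSNBA libraries lay below the control median. Of the 4 below every control, MSNBA 2 was level with control 4 at 160 CPM, and 3 of the controls were between 160 and 173 CPM, close to the MSNBA values. The fitted log2 difference was -0.35 (SE 0.19, edgeR adjusted p = 0.586, unadjusted p = 0.0731). With library depth in the model it was -0.51 (edgeR adjusted p = 0.519, unadjusted p = 0.0277). Psmd7 and Psmd6, scaffold subunits of the cap, had values of -0.23 (SE 0.18) and -0.24 (SE 0.26). Psmd5 is a cap assembly chaperone despite its symbol and had a value of -0.18 (SE 0.28), with its lowest level, 22.4 CPM, in MSNBA 6.

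**Figure D3:**
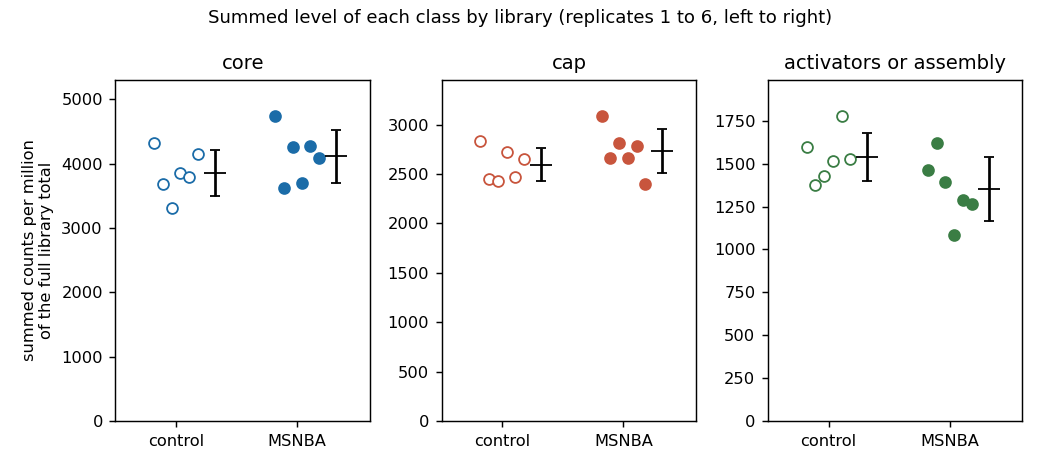
Summed CPM (over the full library total) of every member of a class, by library, with replicates 1 to 6 from left to right, and the mean ± SD of each group beside the points. Core and cap overlap almost fully between groups, while 3 of 6 MSNBA values of the activators or assembly class lie below every control. The sum of that class comes mostly from Psme1, Psme2 and Psme2b.

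Among activators, Psme1 had the lowest p of all members. Psme1 and Psme2 are the subunits of a ring-shaped activator that interferon induces, and they lie close to each other on chromosome 14, at chr14:55578494-55581527 and chr14:55587440-55591101. Psme1 measured 761, 942 and 1148 CPM in controls and 649, 734 and 894 CPM in MSNBA. In 4 of 6 MSNBA libraries it lay below all controls, and the highest MSNBA values, in MSNBA 2 and 3, were within the control range. The fitted log2 difference was -0.29 (SE 0.12, edgeR adjusted p = 0.431, unadjusted p = 0.0229), a fold with a 95% interval from 0.692 to 0.972. With 1 library left out, the edgeR unadjusted p ran from 0.00915 (without control 2, adjusted p = 0.332) to 0.0684 (without control 5). It was also above 0.05 without MSNBA 1 (0.0511) and without MSNBA 6 (0.0615). It was 0.0614 with library depth in the model, at a value of -0.27, and 0.0111 after thinning to equal depth, at -0.43, and the edgeR adjusted p was 0.602 and 0.306. Without the low-count filter the value was -0.14 (edgeR unadjusted p = 0.330), in a fit where the median of the genes of the reported test moved to 0.14. Psme1 shares 14 exon bases with Emc9 on the opposite strand.

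Psme2, the partner subunit, measured 265, 443 and 481 CPM in controls and 217, 407 and 498 CPM in MSNBA. The groups covered nearly the same range, and the fitted log2 difference was -0.09 (SE 0.17, edgeR adjusted p = 0.914). Control 2 stood apart from the other controls, which had 403 CPM or more. The difference of Psme2 was -0.44 after thinning to equal depth (edgeR adjusted p = 0.504, unadjusted p = 0.0682), beside -0.43 for Psme1, and -0.22 with library depth in the model. It was -0.012 without MSNBA 4 and -0.17 without control 2. Whether Psme1 and Psme2 differed in response was not tested. For each 100 counts of Psme1 the controls had 34.8 to 58.8 counts of Psme2 and the MSNBA libraries 30.2 to 67.8, neither scaled by gene length.

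Psme2b, at chr11:48945345-48946410, is a near copy of Psme2. It measured 132, 218 and 303 CPM in controls and 108, 163 and 193 CPM in MSNBA, and the fitted log2 difference was -0.34 (SE 0.20, edgeR adjusted p = 0.618). With library depth in the model it was -0.54 (edgeR adjusted p = 0.519, unadjusted p = 0.0279). Its values depend on how reads of the copies were told apart. Over the 696 aligned coding bases of the GENCODE M21 transcripts Psme2-201 and Psme2b-201 (longest open reading frame, from the start codon), 13 bases differed, an identity of 98.1%, and the longest stretch without a difference was 264 bases. The name of the deposited table carries the marks unq, refseq and umi, which read as unique alignments counted by molecular identifier, but no label spells this out. How a read of such a stretch was treated is not stated, so both genes are reported as uncertain. The window of 90 bases with the most differences is shown because reads over such bases can be assigned. The alignment also left 24 coding bases in gaps, and sequence outside the coding part was not compared. It holds coding bases 430 to 519 of Psme2 and 454 to 543 of Psme2b, with the 3 differing bases in capitals.
Psme2: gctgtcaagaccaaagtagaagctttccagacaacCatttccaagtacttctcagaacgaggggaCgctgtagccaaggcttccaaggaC
Psme2b: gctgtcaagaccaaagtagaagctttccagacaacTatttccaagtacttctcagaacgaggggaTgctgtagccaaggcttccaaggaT

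The 3 tested activator genes had a median log2 fold change of -0.29, and all were below 0. Without the low-count filter Psme2 was at 0.057, in a fit where the median of the genes of the reported test moved to 0.14. With 3 genes, of which 2 share sequence, the median of -0.29 is a description of these genes and not of the class. Summed over all 11 members, the class gave 1376 to 1776 CPM of the full total in controls (mean 1537 ± 141, SD, n = 6) and 1083 to 1620 CPM in MSNBA (mean 1352 ± 184, SD, n = 6), a ratio of 0.88 with overlapping groups. Most of that sum came from the same 3 genes, so it does not describe the class either. On the normalized scale, its mean was 1954 CPM in controls and 1695 CPM in MSNBA. Psme1, Psme2 and Psme2b alone had means of 932, 415 and 214 CPM in controls and 761, 384 and 157 CPM in MSNBA. The sum also holds the interacting protein gene Psme3ip1.

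**Figure D4:**
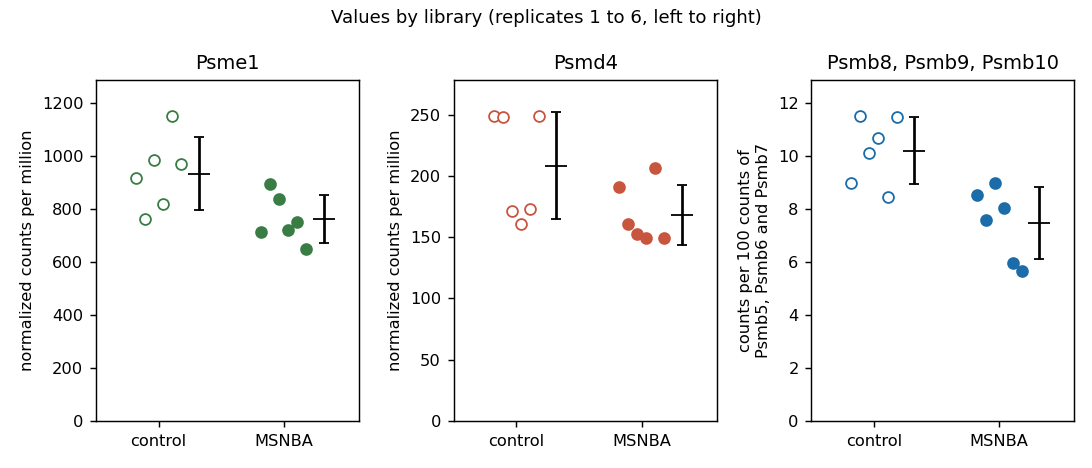
Left and middle, normalized CPM of Psme1 and Psmd4 by library; right, counts of Psmb8, Psmb9 and Psmb10 per 100 counts of Psmb5, Psmb6 and Psmb7, each with the mean ± SD of 6 libraries beside the points and replicates 1 to 6 from left to right. In each panel 4 of 6 MSNBA libraries lie below all controls and the others inside the control range.

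The immunoproteasome subunits were too thinly counted to test singly. Psmb8 had 28 counts over the controls and 48 over MSNBA, which is 52.0 CPM (95% Poisson interval 34.5 to 75.1) and 37.1 CPM (27.4 to 49.2). Psmb9 had 28 and 75 counts, or 52.0 CPM (34.5 to 75.1) and 58.0 CPM (45.6 to 72.7). Psmb10 had 26 and 43 counts, or 48.3 CPM (31.5 to 70.7) and 33.3 CPM (24.1 to 44.8). The intervals of the groups overlapped for each gene, and they cover counting error only. Psmb9 shares 5.79% of its exon bases with Tap1 on the opposite strand.

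Set against their constitutive counterparts within the same library, these genes gave 8.45 to 11.5 counts per 100 counts of Psmb5, Psmb6 and Psmb7 in controls and 5.67 to 8.99 in MSNBA. In 4 of 6 MSNBA libraries the ratio lay below all controls, and in MSNBA 1 and 3 it lay within the control range. By pairs, pooled over a group, the ratio of Psmb8 to Psmb5 was 8.92 and 5.72 per 100, that of Psmb10 to Psmb7 was 9.63 and 6.34, and that of Psmb9 to Psmb6 was 12.2 and 12.9, in controls and MSNBA. Control 4 had 19.5 counts of Psmb10 per 100 of Psmb7, beside 5.81 to 12.5 in the other controls. The pooled level of Psmb10 in MSNBA over that in controls was 0.689, and it was 0.881 without control 4 and 0.989 without controls 2 and 4. These ratios rest on 82 immunoproteasome counts in controls and 166 in MSNBA and were not tested. Other interferon-responsive genes were mostly too few to test. Of the 9 examined, B2m, the light chain of MHC class I, was the 1 tested, with 176 to 325 CPM in controls and 253 to 359 CPM in MSNBA (fitted log2 difference 0.45, SE 0.18, edgeR adjusted p = 0.378, unadjusted p = 0.0130). Its difference had the opposite sign to that of Psme1.

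Other activators and the assembly factors were also below the filter. Psme3, which forms a nuclear activator, had 41 and 93 counts, or 76.1 CPM (54.6 to 103) in controls and 72.0 CPM (58.1 to 88.1) in MSNBA. Psme4, a large activator with a role in histone turnover in male germ cells, had 49 and 94 counts, or 90.9 CPM (67.3 to 120) and 72.7 CPM (58.8 to 89.0). Psmf1, an inhibitor of the core in isolated preparations, had 28 and 75 counts, or 52.0 and 58.0 CPM. All these intervals overlapped.

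The assembly chaperones Psmg1 to Psmg4 were counted 13, 11, 13 and 11 times over the controls and 35, 49, 44 and 35 times over MSNBA. Pooled levels were 24.1 and 27.1 CPM for Psmg1, 20.4 and 37.9 CPM for Psmg2, 24.1 and 34.0 CPM for Psmg3 and 20.4 and 27.1 CPM for Psmg4. Pooling gives deep libraries more weight. For Psmg3 the mean over libraries went the other way, with 31.8 CPM in controls and 28.8 CPM in MSNBA. In 5 of 6 MSNBA libraries Psmg3 lay below the control median. Each pair of pooled intervals overlapped, also for Psmg2 (10.2 to 36.5 CPM and 28.0 to 50.1 CPM). Among the untested genes of the cap, the scaffold gene Psmd11 had 76.1 CPM in controls and 82.8 CPM in MSNBA. The gene of the cap chaperone gankyrin, Psmd10, had 4 and 21 counts, or 7.42 CPM (2.02 to 19.0) and 16.2 CPM (10.1 to 24.8).

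A fit without the low-count filter gave a value for these 20 genes and called 0 of them. At an unadjusted p under 0.05 it had Psmg2 at 1.00 (SE 0.49) and Psmc3ip, a meiotic recombination factor and no proteasome subunit, at -1.34 (SE 0.59). Each had an adjusted p of at least 0.602 by edgeR. Of all 19576 genes in that fit, 1363 had an unadjusted p under 0.05. The median of the genes of the reported test was 0.14 in that fit. Subunits known from other tissues were also counted. Psmb11, the catalytic subunit of the thymus proteasome, had 16 and 33 counts, and Psma8, the outer-ring subunit of spermatogenic cells, had 3 and 14. Their pooled levels were 29.7 and 25.5 CPM for Psmb11 and 5.57 and 10.8 CPM for Psma8, with overlapping intervals.

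**Figure D5:**
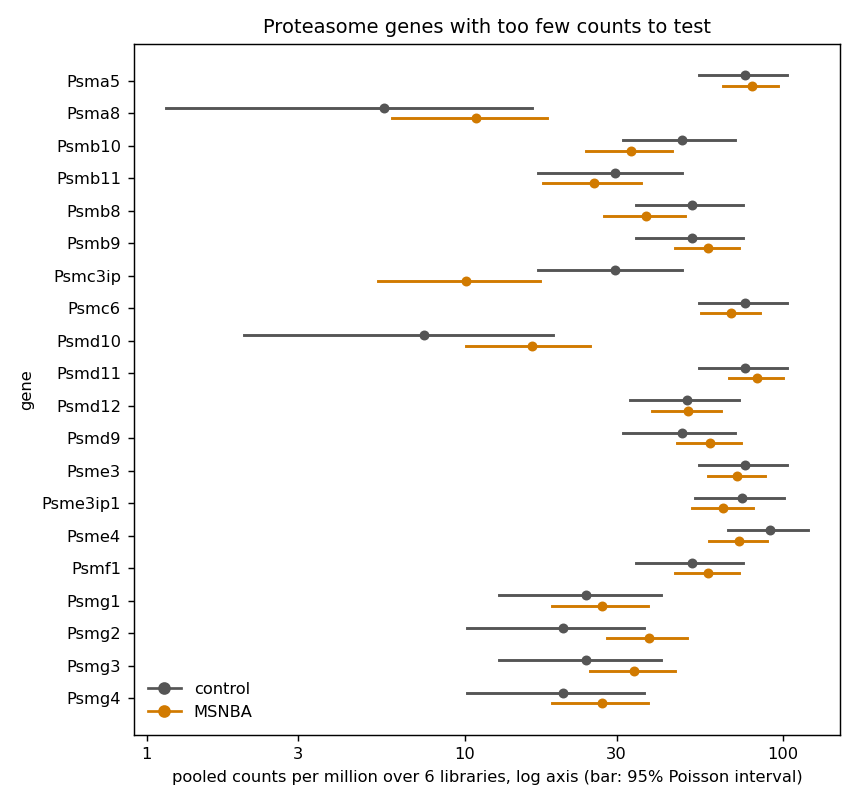
Pooled CPM (log axis) of the 20 proteasome genes with too few counts to test, in controls and MSNBA, with exact 95% Poisson intervals that cover counting error only. The intervals of both groups overlap for every gene shown, with Psmc3ip the narrowest overlap.

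All 51 genes together took 0.798% ± 0.057 of the counts in controls and 0.820% ± 0.0652 in MSNBA (SD, n = 6 per group), and the ranges of 0.717% to 0.876% and 0.744% to 0.928% overlapped. The highest shares were those of MSNBA 1, control 1 and MSNBA 3, at 0.928%, 0.876% and 0.846%, which are also the 3 deepest libraries, with 657251, 234225 and 342488 counts. MSNBA 1 had 26 of the 31 tested members above their own mean over the libraries, control 1 and MSNBA 3 had 22 each, and the other libraries had 13 to 20. Of all 2614 tested genes, 1459 were above their own mean in MSNBA 1, 1433 in control 1 and 1372 in MSNBA 3. The other libraries had 1327 to 1448. By the shares of counts, depth thus moved with the summed level. It was also mostly higher in MSNBA, so values with library depth in the model cannot fully separate depth from treatment. With library depth in the model the core median was 0.062, that of the cap -0.064 and that of the 3 activators -0.27, and 0 members were called. After thinning to equal depth, which left 17 members to test, the medians were 0.051 for core, 0.074 for cap and -0.43 for the 2 activators left, Psme1 and Psme2, and 0 members were called.

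Genes that work with the proteasome were taken as a list of 36 symbols, of which 31 were in the table and 18 were tested. Of these, edgeR called 0 in either direction, beside 0.0765% of all 2614 tested genes. Their log2 fold changes lay above 0 for 8 genes and below for 10, with a median of -0.08. Over all tested genes 48.5% lay above 0, with a median of -0.0082. Pomp, the maturation factor of the core, measured 99.3 to 197 CPM in controls and 135 to 244 CPM in MSNBA, a fitted log2 difference of 0.31 (SE 0.20, edgeR adjusted p = 0.639), or 0.20 with library depth in the model. Nfe2l1, the transcription factor that raises proteasome genes when proteasome activity falls, had -0.18 (SE 0.19), or -0.019 without control 2, with 152 to 430 CPM in controls and 171 to 261 CPM in MSNBA. Its relative Nfe2l2 had 0.06 (SE 0.24). The highest control value of both factors was in control 2, and the signs of both turned in some runs with libraries left out.

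At an unadjusted p under 0.05 by edgeR, 8.95% of all tested genes passed and the list held 1 gene, Midn. Its product brings proteins to the proteasome without ubiquitin. Midn measured 197 to 298 CPM in controls and 172 to 248 CPM in MSNBA, and the fitted log2 difference was -0.39 (SE 0.18, edgeR adjusted p = 0.478, unadjusted p = 0.0345). In MSNBA 5 it stood at 248 CPM, and the other MSNBA libraries were at or below 194 CPM. The ubiquitin gene Ubb had a value of 0.13 (SE 0.11), and the segregase gene Vcp had -0.09 (SE 0.13).

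The genes with the interferon core in the promoter had values on both sides of 0. Psmd4 had a log2 fold change of -0.35 and Psme1 one of -0.29, while Psmb3, an inner-ring subunit without catalytic activity, had 0.12 (SE 0.14, edgeR adjusted p = 0.829), and Psmd9 and Psmg4 were not tested. Psmb3 measured 624, 772 and 973 CPM in controls and 650, 833 and 1066 CPM in MSNBA, with overlapping groups. In Psme1 the match starts at base 10 of the transcribed part of the window. Psmb5 and Psmb6, with the antioxidant core, had the values of 0.15 and 0.10 given above, and the other 4 genes that hold it, Psmc6, Psmd9, Psmd12 and Psme4, were not tested.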

How the data were processed

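The authors deposited whole-number, unscaled counts of 12 libraries by gene symbol in a single table. Alignment to mm10 with BWA 0.7.4.4 is named per the submitters' processing notes. The table's name carries the marks unq, refseq and umi, which read as unique alignments to RefSeq genes counted by molecular identifier; no label spells this out, and the counting program and strand are not stated. Columns were matched to samples by library name, and groups came from the labels. The column order reads as 3 sets of 4 and was not used; 0 columns belonged to other samples. Totals ran from 59113 to 657251. In R 4.3.3, edgeR 4.0.16 filtered genes (filterByExpr, minimum count 10), scaled them by TMM and fitted treatment with a robust quasi-likelihood F test over 2614 genes, with Benjamini-Hochberg adjustment and two-sided p-values. The standard error is the size of the log2 fold change over the square root of F. Pooled CPM use summed TMM effective library sizes. Members and lists were chosen with earlier results of these data known. Named were members with an unadjusted p under 0.05, class extremes, catalytic, activator and assembly genes, Psmd4, Psmd11 and Psmd14, and partners by the same p plus Nfe2l1, Nfe2l2 and Pomp; further genes were named after their values were seen. Alternatives were DESeq2 1.42.0, limma-voom 3.58.1, other factors and filters, thinning by a single random draw, a replicate block, library depth and libraries left out. The test was tried on simulated data. Positions are from RefSeq GRCm38.p6.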

Additional observations from a re-analysis of the deposited data

Results flagged for a closer look

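Among 36 groups of 6 libraries, 2 had a single library far from the rest, and chance alone would give about 1.8 (1 in 20). Psme2 measured 265 normalized CPM in control 2, and the other controls had 403 CPM or more. Midn measured 248 CPM in MSNBA 5, and the next MSNBA library had 194 CPM.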

How the results depend on the processing

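The count of 0 proteasome genes called held under every alternative run, with 0 to 6 members at an unadjusted p under 0.05. The highest, 6 of 51, was without the low-count filter, where 1363 of all 19576 genes passed at that level. The count of all genes, 2 in the reported test, was 15 (8 higher, 7 lower) without the low-count filter, 1 with the stricter filter, 0 by DESeq2, 0 by limma-voom, 0 with library depth, 7 (4 higher, 3 lower) without controls 2 and 4, 0 without MSNBA 1 and control 5, and 0 to 5 with 1 library left out. With the replicate block it was 3, and 0 proteasome genes were called. Same-numbered libraries had residual correlations over 0.1 in 2 of 6 pairs, and 4 of 12 libraries were most similar to their own number, so the numbers were not taken to pair them. The core and cap medians were 0.25 and 0.25 without the filter (all genes 0.14). The cap median was -0.064 with library depth. With 1 library left out the medians ran from 0.043 to 0.15 for core, -0.0082 to 0.11 for cap and -0.33 to -0.23 for activators. Signs turned for Psma7 (0.016) and Psme2 (0.057) without the filter, for Psmb5 (-0.010) and Psmb7 (-0.10) after thinning, and for Nfe2l1 (0.068) without controls 2 and 4. With 1 library left out Psmb7 ran from -0.045 (without control 3) to 0.11, with -0.015 without control 1 and -0.032 without MSNBA 5. Nfe2l2 ran from -0.10 (without MSNBA 1) to 0.20, with -0.042 without control 1 and -0.065 without control 6, and was -0.13 without MSNBA 1 and control 5. The pooled MSNBA to control ratio of Psmg1 was 2.29 without control 6 and 0.861 to 1.38 otherwise. The causes were not tested. The 20 members below the filter had 17 to 148 counts over all libraries, and their pooled intervals cover counting error only.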
